A study of Mus musculus with 12 samples.

Results

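DNA glycosylases, the enzymes that remove damaged or misplaced bases from DNA, were followed in mouse liver at every probe set that the platform annotation assigns to a single glycosylase gene. The list held 9 genes (Mpg, Ung, Tdg, Smug1, Mbd4, Ogg1, Mutyh, Nthl1 and Neil1), and 6 of them had such a probe set. These 6 genes were read by 8 probe sets, of 22626 probe sets tested and 12393 genes with a probe set of their own on the array. Mpg and Ogg1 had 2 probe sets each. Tdg was read only by 3 probe sets that the annotation shares between Tdg, Tdg-ps and Tdg-ps2, and no probe set listed Neil1 or Smug1, so these 3 genes were not counted among the members.

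The study asked how the response of liver to an alkylating agent depends on Aag, the alkyladenine glycosylase encoded by Mpg. All animals were C57Bl/6J mice of 6 to 8 weeks, with 3 animals per group and 1 Affymetrix array per animal. The 4 groups were Aag knock-out mice given methyl methane sulfonate (MMS) as 1 intraperitoneal injection of 75 mg/kg, wild-type mice given the same dose, Aag knock-out control mice, and wild-type control mice. Livers of the MMS groups were taken 6 h after the injection. Whether control mice received a vehicle, and which part of Mpg the knock-out allele lacks, is not given in the sources used here. Values are log2 expression values after the authors' normalization, so a difference of 1 is a change in signal by a factor of 2, and differences are given with the standard error (SE) of the fit over the 12 arrays.

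Base excision repair begins when a glycosylase flips a base out of the helix and cuts the bond that joins it to the sugar, which leaves an abasic site. The nuclease APE1 then nicks the strand, a polymerase fills the gap and a ligase seals it. Each glycosylase has its own range of substrates: Mpg takes alkylated purines such as those MMS makes, Ung, Tdg, Smug1 and Mbd4 take uracil or thymine in mispairs or other contexts, and Ogg1, Mutyh, Nthl1 and Neil1 act on oxidised bases or on adenine paired with them. Abasic sites and nicks are themselves toxic, and Mpg is known in mice for shaping the sensitivity of several tissues to alkylating agents.

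The promoters of Mpg, Ung and Nthl1 are shown because these 3 genes hold the differences described next. Each is the sense strand from 250 bases before to 50 bases after the start annotated by RefSeq, on GRCm38.p6, and all 3 genes lie on the plus strand. Capitals mark every match, on either strand, to the 8 motifs searched: the E2F motifs TTTCGCGC and TTTGGCGC, the E-box CACGTG, the D-box TTATGTAA, the cyclic AMP element TGACGTCA, the ATF4 element TGATGCAA, the CCAAT box and the GC box GGGCGG.
Mpg, chr11:32226255-32226554: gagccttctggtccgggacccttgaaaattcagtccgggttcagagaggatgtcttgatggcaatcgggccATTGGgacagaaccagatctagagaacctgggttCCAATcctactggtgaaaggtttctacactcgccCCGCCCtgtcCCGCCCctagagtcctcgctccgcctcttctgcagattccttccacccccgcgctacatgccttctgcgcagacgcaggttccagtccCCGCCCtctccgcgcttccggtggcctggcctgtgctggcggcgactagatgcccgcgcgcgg
Ung, chr5:114130185-114130484: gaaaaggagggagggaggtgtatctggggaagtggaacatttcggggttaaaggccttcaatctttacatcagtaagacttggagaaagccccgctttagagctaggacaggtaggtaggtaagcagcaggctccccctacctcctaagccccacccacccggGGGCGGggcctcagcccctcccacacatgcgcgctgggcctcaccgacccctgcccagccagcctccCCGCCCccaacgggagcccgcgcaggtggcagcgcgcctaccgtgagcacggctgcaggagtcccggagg
Nthl1, chr17:24632432-24632731: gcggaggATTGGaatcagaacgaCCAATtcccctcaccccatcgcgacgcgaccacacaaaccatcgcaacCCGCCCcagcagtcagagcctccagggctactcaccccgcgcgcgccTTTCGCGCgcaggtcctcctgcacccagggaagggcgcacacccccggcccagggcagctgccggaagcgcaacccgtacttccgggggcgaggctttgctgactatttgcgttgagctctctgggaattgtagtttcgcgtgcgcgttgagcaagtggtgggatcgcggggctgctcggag

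The Mpg window held 2 CCAAT boxes and 3 GC boxes. The Ung window held 2 GC boxes, which start 87 and 20 bases before the gene's start, and none of the other 7 motifs. The Nthl1 window was the only one of the 3 with an E2F motif, TTTCGCGC at 132 bases before the start, and it also held 2 CCAAT boxes and 1 GC box. Of the 32851 promoter windows of this length in the RefSeq table, 0.323% held TTTCGCGC, 37.4% a CCAAT box and 35.7% a GC box. No 2 motifs overlapped in these windows. A match is a run of letters and was not tested as a binding site.

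Array medians were 7.42 to 7.75, and correlations over all probe sets were 0.962 to 0.995 between any pair. The 5′ minus 3′ log2 signal of the Actb and Gapdh control probe sets, a sign of RNA quality, was -1.61 and -1.51 on MMS knock-out arrays 1 and 2, against -2.66 to -2.001 on the other 10 arrays. With this signal as a covariate, limma called 0 probe sets for MMS in knock-out liver, against 341 without it. On MMS knock-out arrays 1 and 2 the 5′ signal lay closest to the 3′ signal. The covariate therefore cannot be fully separated from MMS in this group, and the cause of the drop was not tested. The best-correlated partner of an array came from its own group in 9 of 12 cases. The exceptions were control knock-out animal 3, closest to MMS knock-out animal 3 (r = 0.988), MMS knock-out animal 3, closest to a wild-type control (r = 0.989), and MMS wild-type animal 1, closest to a knock-out control (r = 0.989). Of 14 hepatocyte markers, 13 were measured, and their mean log2 level lay between 13.3 and 13.7 on all arrays. Members that rest on these arrays are therefore also given without both knock-out animals 3.

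Mpg was lower in Aag knock-out liver at 1 of its 2 probe sets. At 1417571_at, the log2 values were 5.75, 5.34 and 5.32 in MMS knock-out livers, against 6.40, 6.94 and 6.80 in MMS wild-type livers. They were 5.44, 5.60 and 4.95 in control knock-out livers, against 6.21, 6.49 and 6.58 in control wild-type livers. All 6 knock-out arrays lay below all 6 wild-type arrays, a separation that 0.287% of all probe sets showed in either direction. Averaged over treatments, the difference was -1.17 ± 0.15 (SE), a signal 2.25-fold lower in knock-out liver (limma, Benjamini-Hochberg adjusted p = 0.0272). It was 1 of 6 probe sets called for the mean genotype effect, which is 0.0265% of all tested (0.0177% were called as lower), and the sixth by p-value after 3 probe sets of Pttg1 (securin, an inhibitor of sister chromatid separation) and 1 each of Nr1d1 and Adamdec1. Within 1 treatment it did not pass the threshold: the difference was -1.24 ± 0.21 after MMS (limma adjusted p = 0.0793) and -1.10 ± 0.21 without MMS (limma adjusted p = 0.356). The call for the mean was lost without both knock-out animals 3 (-1.04, limma adjusted p = 0.0644). It was also lost when any of 8 single arrays was left out, namely MMS knock-out 2 or 3, MMS wild-type 2 or 3, control knock-out 1 and each control wild-type array, with differences of -1.25 to -1.08 over all 12 arrays left out in turn.

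The other Mpg probe set, 1417572_at, read 7.96, 7.62 and 8.18 in MMS knock-out livers, against 8.19, 8.02 and 8.50 in MMS wild-type livers. Without MMS it read 7.36, 7.75 and 7.88 in knock-out livers, against 7.94, 8.12 and 7.84 in wild-type livers. The genotypes overlapped in both treatments. The mean genotype difference was -0.31 ± 0.14, with an unadjusted p of 0.0415 in limma and an adjusted p of 0.615. The 95% intervals of the 2 probe sets, -1.50 to -0.85 and -0.61 to -0.01, do not overlap, so the probe sets disagree on the size of the difference. They also differed in signal. The mean log2 level over all arrays was 5.99 at 1417571_at (percentile 30.0 of all probe sets) and 7.95 at 1417572_at (percentile 53.9). The part of signal level in this disagreement was not tested. The sources used here do not place the probe sets against the knock-out deletion, so neither serves as a full check of the genotype labels. After MMS, neither Mpg probe set changed in a way that passed the test. The MMS differences were 0.15 ± 0.21 in knock-out and 0.29 ± 0.21 in wild-type liver at 1417571_at, and 0.26 ± 0.19 and 0.27 ± 0.19 at 1417572_at. The difference between the genotypes' responses at 1417571_at was -0.14, with a 95% interval of -0.79 to 0.51. The group means at 1417571_at were, from low to high, 5.33 in control knock-out, 5.47 in MMS knock-out, 6.43 in control wild-type and 6.72 in MMS wild-type livers, and the groups of 1 genotype overlapped.

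**Figure D1:**
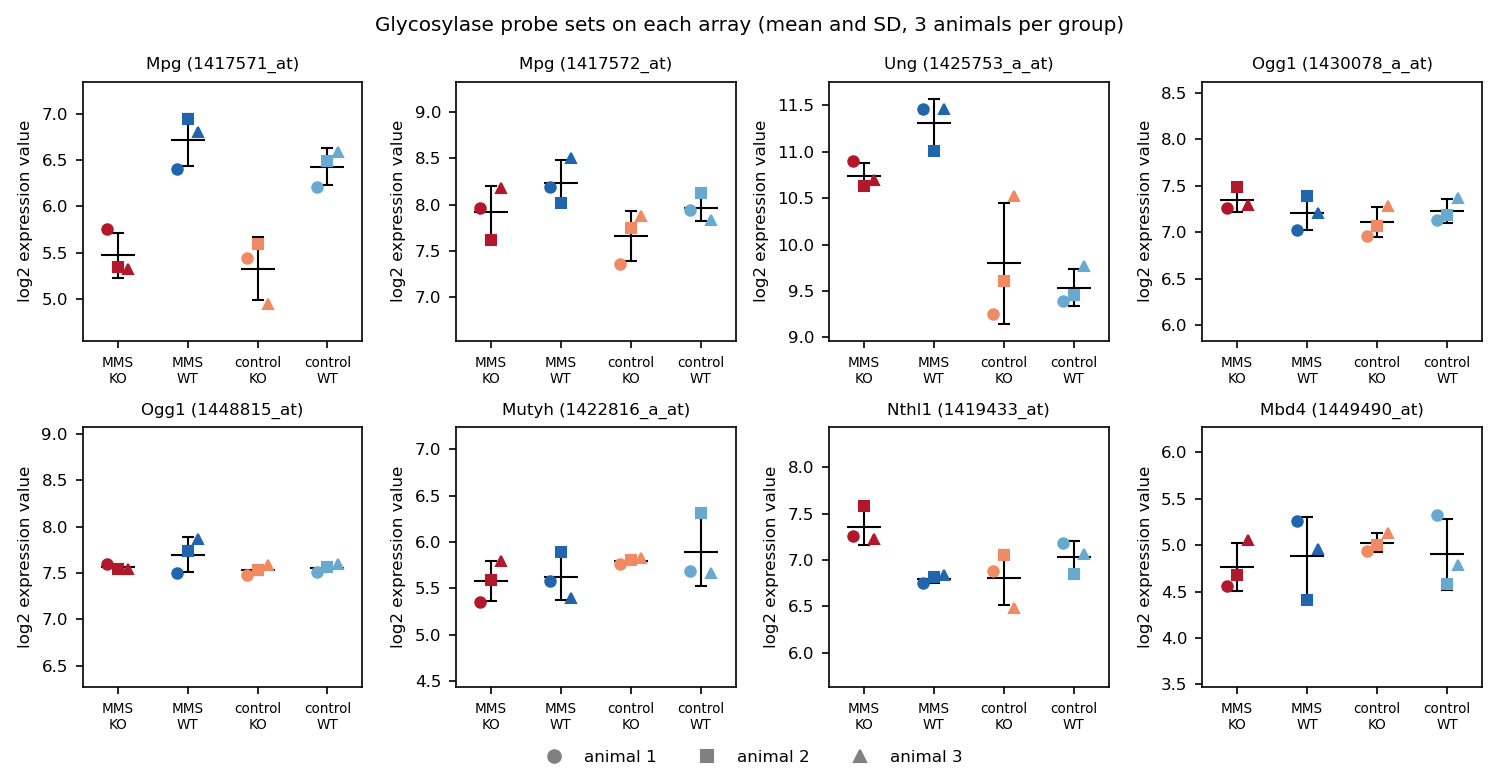
Log2 expression value (vertical axis, a separate range for each probe set) of the 8 glycosylase probe sets in each of the 3 animals of the 4 groups, with the mean and SD as bars. Mpg at 1417571_at separates by genotype, with no knock-out array above 5.75 and no wild-type array below 6.21, and Ung at 1425753_a_at separates MMS from control arrays.

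No measured gene beside Mpg was called for the genotype. The 5 measured neighbours on each side, in RefSeq gene order, were 4930524B15Rik, Nsg2, Il9r, Snrnp25 and Rhbdf1 before it, and Nprl3, Hba-x, Hba-a1, Hba-a2 and Stk10 after it. None of these 10 passed limma's test for the mean genotype effect, and 1 of them, Rhbdf1, had an unadjusted p under 0.05 (0.0303). Their mean differences over treatments ran from -0.19 at Hba-x to 0.48 ± 0.19 at Rhbdf1, which encodes an inactive rhomboid protease next to Mpg. Within 1 treatment none was called either. The differences ran from -0.76 at Hba-a1 to 0.56 at Snrnp25 after MMS, and from -0.36 at Snrnp25 to 0.59 at Rhbdf1 without MMS. Hba-a1 had opposite signs, with -0.76 ± 0.14 after MMS (limma adjusted p = 0.0793) and 0.48 ± 0.14 without MMS (limma adjusted p = 0.436). Its mean over treatments was -0.14. Hba-a1 and Hba-a2 are near-identical copies, and whether a probe set of either reads both was not tested. After MMS in wild-type liver, 2 of the 10 were called, where 6.44% of all probe sets were called. Hba-a1 rose (0.93 ± 0.14, limma adjusted p = 0.00626) and Stk10, a serine/threonine kinase, fell (-0.68 ± 0.18, limma adjusted p = 0.0450). Hba-a2 was lower after MMS and not called (-0.48 ± 0.22, limma adjusted p = 0.233), and Hba-x was higher and not called (0.33 ± 0.21, limma adjusted p = 0.384). In control wild-type livers the mean log2 level was 9.97 at Hba-a2, against 5.46 at Hba-a1 and 4.78 at Hba-x.

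**Figure D2:**
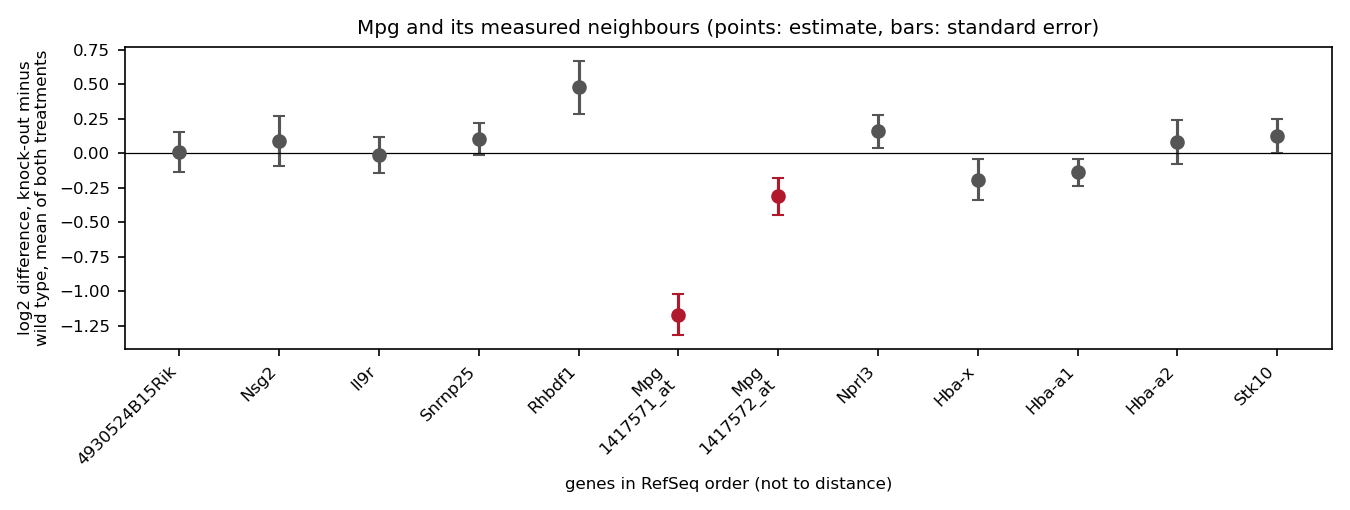
Log2 difference of knock-out minus wild type averaged over both treatments (vertical axis, points, with SE bars) for the 2 Mpg probe sets in red and 1 probe set for each of the 10 measured neighbours in grey, in RefSeq order and not to distance. Mpg at 1417571_at stands at -1.17, while the neighbours lie between -0.19 and 0.48.

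Over the 12 arrays, the genes whose pattern was closest to Mpg at 1417571_at were Pttg1 (Pearson r = 0.927 and 0.908 at 2 probe sets) and Sdf2l1, a component of the endoplasmic reticulum chaperone system (r = 0.910). At the other Mpg probe set the closest were Eif2b4 (r = 0.905), Nek6 (r = 0.896) and Ubxn2b (r = 0.894). These values describe arrays that share the same 4 groups and carry no test.

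Ung, the main uracil glycosylase and the member with the largest MMS difference, rose in wild-type liver. Its values at 1425753_a_at were 10.90, 10.63 and 10.70 in MMS knock-out livers, against 9.25, 9.61 and 10.53 in control knock-out livers. They were 11.46, 11.01 and 11.46 in MMS wild-type livers, against 9.39, 9.46 and 9.77 in control wild-type livers. In both genotypes every MMS array lay above every control array, although in knock-out liver the margin was small because control animal 3 read 10.53. In wild-type liver the difference was 1.77 ± 0.28, a 3.42-fold rise (95% interval 1.16 to 2.38, limma adjusted p = 0.0071). It was the single glycosylase probe set called there, where 6.44% of all probe sets were called and 1.99% were called as higher. In knock-out liver the difference was 0.95 ± 0.28, with an unadjusted p of 0.00575 and a limma adjusted p of 0.0842. With the 5′ to 3′ signal as covariate it was 0.89 in knock-out liver (limma adjusted p = 0.489) and 1.77 in wild-type liver (limma adjusted p = 0.00905). Averaged over genotypes Ung rose by 1.36 ± 0.20 (limma adjusted p = 0.00332), again the single member called, where 11.3% of all probe sets were called and 4.61% as higher. All 6 MMS arrays lay above all 6 control arrays, and 5.12% of all probe sets separated in this way in either direction.

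The responses of Ung in the 2 genotypes were compared directly. The knock-out response minus the wild-type response was -0.83 ± 0.39, with a 95% interval of -1.69 to 0.03 (limma unadjusted p = 0.0578, adjusted p = 0.298), so a difference was not shown. After MMS, all 3 knock-out arrays lay below all 3 wild-type arrays (-0.57 ± 0.28, limma adjusted p = 0.303), while without MMS the genotypes overlapped (0.26 ± 0.28). By mean, MMS knock-out livers (10.7) stood below MMS wild-type livers (11.3), and control knock-out livers (9.80) stood above control wild-type livers (9.54), with overlap between the control groups only. The SD of the control knock-out group was 0.66, against 0.14 to 0.26 in the other 3 groups. Without control knock-out animal 3, the MMS difference in knock-out liver was 1.31 (limma adjusted p = 0.0218), and without both knock-out animals 3 it was 1.33 (limma adjusted p = 0.0131). The same array read 13.04 at Dbp, a clock-controlled transcription factor, against 11.31 and 10.64 on the other control knock-out arrays and 8.14 to 8.58 on the control wild-type arrays. Dbp in MMS livers was 12.16 to 12.83 in knock-out and 12.49 to 12.77 in wild type. Of 15 measured clock genes, 0 were called after MMS in knock-out liver, where 1.51% of all probe sets were called. After MMS in wild-type liver 5 rose and 3 fell, where 6.44% of all probe sets were called. Without MMS, 3 were higher in knock-out than in wild-type liver, where 0.0398% of all probe sets were called. The part of the clock genes in the Ung result was not tested.

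The genes closest to Ung over the 12 arrays were Ibtk (r = 0.956), Bfar (r = 0.945), a regulator of apoptosis, and Slc35a2 (r = 0.938), a transporter of UDP-galactose into the Golgi. Their MMS differences in wild-type liver were 0.52, 1.03 and 0.46. The nearest measured genes on either side of Ung, Svop and Acacb, were not called in any of the 7 comparisons. The MMS difference of Svop was -0.36 ± 0.33 in knock-out and 0.79 ± 0.33 in wild-type liver (limma adjusted p = 0.517 and 0.182). That of Acacb was 1.15 ± 0.37 and -0.40 ± 0.37 (limma adjusted p = 0.102 and 0.553). Ung encodes nuclear and mitochondrial forms from alternative starts, and which form the probe set reads is not given in the sources used here.

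**Figure D3:**
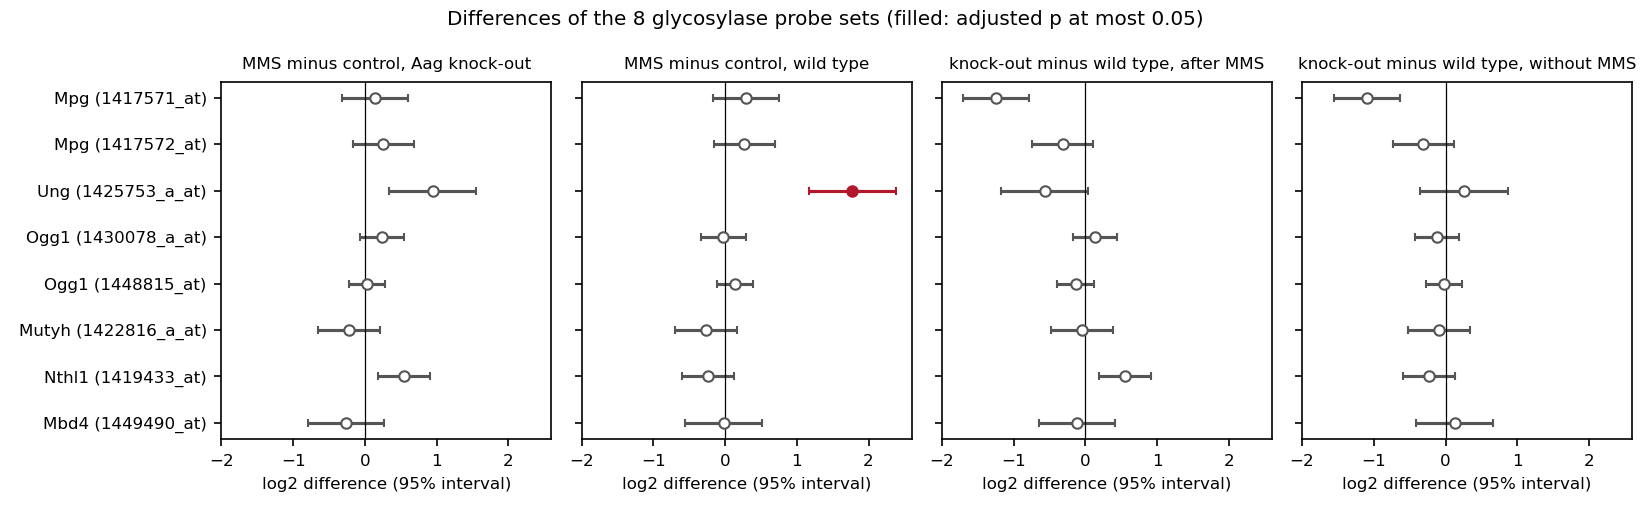
Log2 difference (horizontal axis, with 95% intervals) of each of the 8 glycosylase probe sets for MMS minus control in each genotype and for knock-out minus wild type with and without MMS, with filled red points where the adjusted p was at most 0.05. The wild-type MMS difference of Ung, 1.77, is the only filled point, and the Mpg points of 1417571_at lie at -1.24 and -1.10.

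Tdg, the thymine glycosylase that acts on G·T mispairs and on oxidised forms of methylcytosine, could not be told apart from its 2 pseudogenes. The 3 shared probe sets were all higher after MMS when averaged over genotypes. At 1416790_a_at, the values were 12.09, 11.93 and 11.79 in MMS knock-out livers, against 11.49, 11.62 and 11.54 in control knock-out livers. They were 12.01, 12.02 and 12.05 in MMS wild-type livers, against 11.42, 11.56 and 11.43 in control wild-type livers. MMS and control arrays did not overlap in either genotype at 1416790_a_at and 1435715_x_at, as at 26.7% of all probe sets in knock-out and 31.8% in wild-type liver. At 1448462_at they overlapped in wild-type liver (10.34, 10.81 and 10.72 against 10.28, 10.27 and 10.36) and not in knock-out liver. The mean MMS difference was 0.47 ± 0.08 at 1416790_a_at, 0.48 ± 0.08 at 1435715_x_at and 0.56 ± 0.11 at 1448462_at (limma adjusted p = 0.00547, 0.00523 and 0.0112). For this mean effect, 11.3% of all probe sets were called. By genotype, 1448462_at was called in knock-out liver (0.80 ± 0.16, limma adjusted p = 0.0418) and not in wild-type liver (0.32 ± 0.16, adjusted p = 0.248), whereas 1416790_a_at (0.56 ± 0.11, adjusted p = 0.0182) and 1435715_x_at (0.49 ± 0.11, adjusted p = 0.0287) were called in wild-type liver and not in knock-out liver. Of all probe sets, 1.51% were called in knock-out and 6.44% in wild-type liver. The difference between the genotypes' responses passed at none of the 3 in limma, and its unadjusted p was 0.0555 at 1448462_at and larger at the other 2. How much of this signal comes from Tdg itself cannot be told apart from that of the pseudogenes.

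Mbd4, which removes thymine and uracil opposite guanine at methylated CpG sites, varied among animals in every group except control knock-out, with SDs of 0.26 in MMS knock-out, 0.43 in MMS wild-type, 0.10 in control knock-out and 0.38 in control wild-type livers. Its values at 1449490_at were 4.55, 4.68 and 5.06 in MMS knock-out, 5.26, 4.41 and 4.96 in MMS wild-type, 4.94, 5.01 and 5.14 in control knock-out and 5.33, 4.58 and 4.79 in control wild-type livers. The groups overlapped in every MMS and genotype comparison. The MMS difference was -0.26 ± 0.24 in knock-out and -0.02 ± 0.24 in wild-type liver. With a within-group SD of 0.32 and 3 animals per group, the 95% interval in wild-type liver reached from -0.55 to 0.51. Changes within this interval remain possible. The interval is not adjusted for the number of probe sets, and the adjusted test needs a larger change to pass. The signal was also weak. The mean log2 level of Mbd4 over the 12 arrays, 4.89, was the lowest of the 8 glycosylase probe sets and lay at percentile 13.4 of all probe sets.

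Among the glycosylases of oxidised bases, the MMS differences of Nthl1 had opposite signs in the 2 genotypes, without passing the adjusted test. The wild-type difference did not pass the unadjusted test either. Nthl1, the endonuclease III homologue that removes oxidised pyrimidines, read 7.26, 7.58 and 7.23 in MMS knock-out livers, against 6.89, 7.06 and 6.48 in control knock-out livers. It read 6.75, 6.82 and 6.84 in MMS wild-type livers, against 7.19, 6.85 and 7.07 in control wild-type livers. Every MMS knock-out array lay above every control knock-out array, and every MMS wild-type array lay below every control wild-type array, there by as little as 0.01. The MMS difference was 0.55 ± 0.17 in knock-out liver (unadjusted p = 0.00721, limma adjusted p = 0.0907). In wild-type liver it was -0.23 ± 0.17, with a 95% interval of -0.60 to 0.13 (limma unadjusted p = 0.186, adjusted p = 0.430). The difference of the responses was 0.78 ± 0.23, with a 95% interval of 0.26 to 1.29 (limma unadjusted p = 0.00680, adjusted p = 0.165). Opposite responses without overlap in either genotype occurred at 1.87% of all probe sets. After MMS, Nthl1 was higher in all 3 knock-out arrays than in all 3 wild-type arrays (0.55 ± 0.17, limma adjusted p = 0.152). With the 5′ to 3′ signal as covariate, the MMS difference in knock-out liver was 0.50 (limma adjusted p = 0.500) and the difference of the responses 0.74 (limma adjusted p = 0.316). Without both knock-out animals 3, knock-out minus wild type after MMS was 0.62 (limma adjusted p = 0.0469). Tsc2, the tumour suppressor gene next to Nthl1, and Slc9a3r2 on its other side were, like Nthl1, not called in any of the 7 comparisons. After MMS, knock-out minus wild type was 0.55 ± 0.14 at Slc9a3r2 (limma adjusted p = 0.118) and 0.35 ± 0.20 at Tsc2, the same sign as at Nthl1. Their differences of the responses were 0.43 ± 0.20 and 0.34 ± 0.28, also positive. In wild-type liver the MMS difference was -0.20 at Slc9a3r2 and 0.05 at Tsc2. Markers of pancreatic acinar cells reached their highest level in an MMS knock-out liver. Of 6 measured of 9 listed, 0 were called, and the mean of their log2 levels ranged over 7.07 to 10.1 in MMS knock-out, 6.33 to 8.17 in MMS wild-type, 6.51 to 7.13 in control knock-out and 6.36 to 7.18 in control wild-type livers. These ranges overlapped, and the markers' part in the Nthl1 values was not tested.

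Ogg1, which removes oxidised guanine opposite cytosine, and Mutyh, which removes adenine mispaired with oxidised guanine, passed no test, adjusted or not, in any of the 7 comparisons. At 1430078_a_at, Ogg1 ranged over 7.26 to 7.49 in MMS knock-out, 7.02 to 7.39 in MMS wild-type, 6.96 to 7.28 in control knock-out and 7.13 to 7.37 in control wild-type livers. At 1448815_at it ranged over 7.54 to 7.60, 7.50 to 7.86, 7.48 to 7.59 and 7.51 to 7.59 in the same groups. The groups overlapped at both probe sets in both genotypes' MMS comparisons. The MMS differences at 1448815_at were 0.03 ± 0.12 in knock-out and 0.14 ± 0.12 in wild-type liver. This probe set had the smallest spread of the 8, with a within-group SD of 0.10 against a median of 0.24 over all probe sets, and its 95% interval in knock-out liver was -0.22 to 0.28. At 1430078_a_at the differences were 0.24 ± 0.14 and -0.02 ± 0.14. Mutyh read 5.36, 5.59 and 5.79 in MMS knock-out, 5.58, 5.89 and 5.40 in MMS wild-type, 5.76, 5.80 and 5.83 in control knock-out and 5.69, 6.31 and 5.67 in control wild-type livers. Its MMS differences of -0.22 ± 0.20 in knock-out and -0.27 ± 0.20 in wild-type liver did not pass limma's test (adjusted p = 0.504 and 0.447).

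Counted over all 8 probe sets, few differences passed. In knock-out liver, limma called 0 of 8 for MMS, where 1.51% of all probe sets were called, and 2 of 8 (Ung and Nthl1) had an unadjusted p under 0.05, against 24.8% of all. The same 2 had MMS and control groups that did not overlap, as did 26.7% of all probe sets. In wild-type liver 1 of 8 (Ung) was called, the same probe set was the only one with an unadjusted p under 0.05, against 23.2% of all, and 2 of 8 did not overlap, against 31.8% of all. The median MMS difference of the 8 was 0.19 in knock-out and 0.06 in wild-type liver, beside -0.06 and -0.05 over all probe sets. Knock-out against wild type, 0 of 8 were called after MMS (0.0177% of all) and 0 of 8 without MMS (0.0398% of all). At an unadjusted p under 0.05 there were 2 (Mpg and Nthl1) and 1 (Mpg), against 18.4% and 7.16% of all. Groups that did not overlap numbered 3 of 8 after MMS (Mpg, Ung and Nthl1) and 1 of 8 without MMS (Mpg), against 17.6% and 18.3% of all. For the difference of the MMS responses, limma called 0 of 8 and 0% of all probe sets, with 1 of 8 (Nthl1) and 17.7% of all at an unadjusted p under 0.05.

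The repair steps that follow the glycosylases showed no called gene. Of 14 listed genes 13 were measured, and 0 of 13 passed limma's test in any of the 7 comparisons. Calls were also few over all probe sets. They were 1.51% for MMS in knock-out liver, 6.44% in wild-type liver, 11.3% for the mean MMS effect and at most 0.0398% in the other comparisons. With 13 genes, a count of 0 therefore says little about these steps. Their median MMS difference was 0.07 in knock-out and -0.08 in wild-type liver, beside -0.06 in each over all genes. Lig1, the ligase of long-patch repair and replication, read 6.93, 7.24 and 7.11 in MMS knock-out, 6.49, 7.18 and 6.99 in MMS wild-type, 6.93, 6.47 and 7.15 in control knock-out and 8.08, 7.36 and 8.85 in control wild-type livers. Its wild-type MMS difference was -1.21 ± 0.33 (limma adjusted p = 0.0530), with every MMS array below every control array. Apex1, which encodes the nuclease APE1 that nicks the abasic sites left by Mpg and Ung, read 11.18, 10.92 and 11.42 in MMS knock-out livers, against 11.76, 11.81 and 11.52 in control knock-out livers (-0.52 ± 0.18, limma adjusted p = 0.110). In wild-type liver its MMS difference had the opposite sign (0.25 ± 0.18, limma adjusted p = 0.430). The 2 lowest Apex1 values came from MMS knock-out arrays 1 and 2, and the part of their 5′ to 3′ signal was not tested.

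Genes with related tasks were also not called. Neil3, a further glycosylase of oxidised bases, had MMS differences of -0.41 in knock-out and -0.33 in wild-type liver. Mgmt, which takes methyl groups off guanine directly, had 0.18 and -0.57. Dut, the dUTPase that keeps uracil out of DNA and so acts ahead of Ung, read 9.43, 9.38 and 8.73 in MMS knock-out livers, against 8.70, 8.27 and 8.65 in control knock-out livers. It read 7.81, 8.49 and 8.30 in MMS wild-type livers, against 8.92, 8.61 and 9.11 in control wild-type livers. Like Nthl1 it was higher after MMS on every knock-out array and lower on every wild-type array, as at 1.87% of all probe sets. The margin in knock-out liver was small (8.73 against 8.70). The difference of the Dut responses was 1.32 ± 0.33 (limma unadjusted p = 0.00228, adjusted p = 0.131). The part of the 5′ to 3′ signal of MMS knock-out arrays 1 and 2 in the Dut values was not tested.

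**Figure D4:**
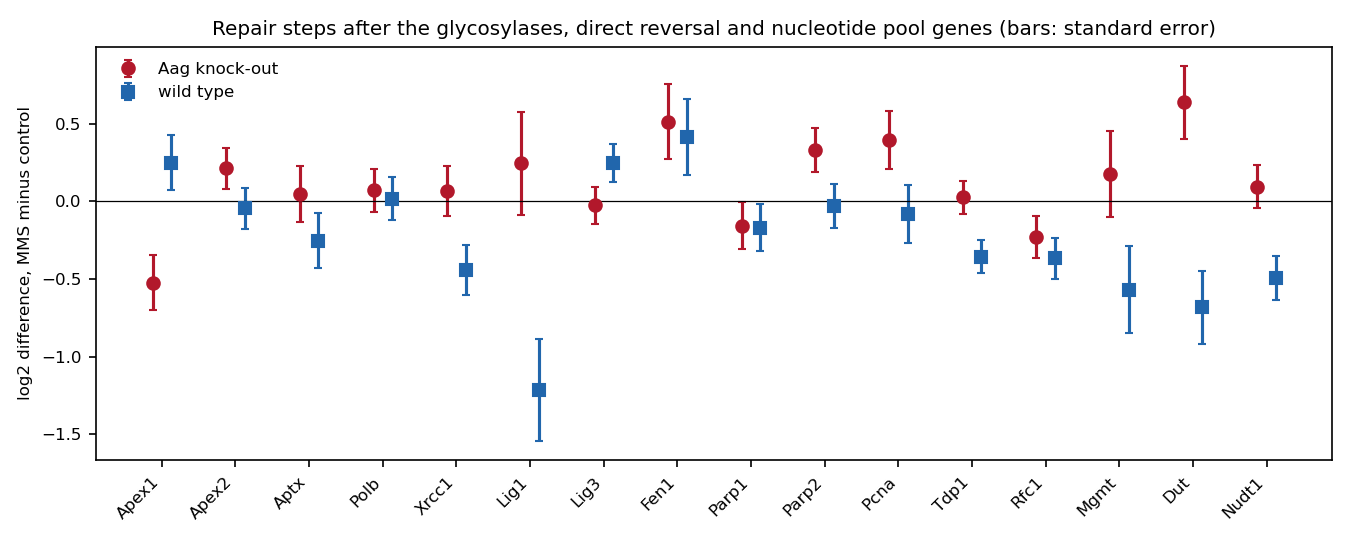
Log2 MMS minus control difference (vertical axis, with SE bars) in Aag knock-out (circles) and wild-type liver (squares) for the 13 measured repair genes that act after the glycosylases, and for Mgmt, Dut and Nudt1. None passed the test; Lig1 in wild-type liver is lowest at -1.21, and Dut stands at 0.64 in knock-out and -0.68 in wild-type liver.

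A list of replication and cell cycle genes was set beside Ung and Lig1. Of 24 measured of 25 listed, 0 were called after MMS in knock-out liver, where 1.51% of all probe sets were called. In wild-type liver 5 of 24 fell and 19 did not pass, where 6.44% of all probe sets were called; those that fell included Tk1 (by 1.76), Uhrf1, Pola1 and Dnmt1. Their median MMS difference was -0.03 in knock-out and -0.83 in wild-type liver. Their mean level was 7.53 to 7.83 in MMS knock-out, 7.49 to 7.62 in MMS wild-type, 7.63 to 7.91 in control knock-out and 7.73 to 8.95 in control wild-type livers. The part of these levels in the Ung and Lig1 results was not tested. Among markers of other liver cells, after MMS in wild-type liver 4 of 8 endothelial, 3 of 8 stellate and fibroblast and 2 of 8 lymphocyte markers fell, 2 of 7 neutrophil markers rose, and of 8 macrophage markers 1 rose and 1 fell. In knock-out liver 1 of 5 bile duct markers rose and no marker of the other lists was called. In whole liver, fewer cells of a type and less RNA per cell cannot be told apart.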

How the data were processed

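Liver RNA of 12 mice was hybridised to 1 Affymetrix array each. The deposited values are log2 expression values after RMA (robust multi-array averaging), per the submitters' processing notes; their version is not given in the sources used here. They were used as deposited, without the 64 control probe sets. Annotation gave 20380 of 22626 probe sets 1 symbol, 691 several and 1555 none; symbols were updated through the gene identifier.

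A mean per group was fitted with limma 3.58.1 in R 4.3.3 over all 12 arrays (8 residual degrees of freedom), with eBayes and Benjamini-Hochberg adjustment over 22626 probe sets, threshold 0.05, in 7 contrasts, and tested on simulated data. Genes outside the glycosylases were read by their brightest single-symbol probe set. The members, lists and tests were chosen with earlier results of these data known. All members, the neighbours and the 3 most alike probe sets were named. From each list, up to 4 genes past the threshold in a contrast, or up to 2 with its smallest p where none passed, could be named, and not all were; Adamdec1 was named after its values were seen. The number of arrays limits precision; arrays carry no read depth. No scan date or batch was used.

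Alternatives covered scaling, filters, variance, array weights, blocking, RNA quality and arrays left out. Same-numbered animals of different groups did not deviate together (median r -0.01 over 18 pairs).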

Additional observations from a re-analysis of the deposited data

Results flagged for a closer look

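Nthl1 at 1419433_at was singled out because its MMS difference had opposite signs in the 2 genotypes. Every MMS knock-out array was above every control knock-out array and every MMS wild-type array below every control wild-type array. The wild-type margin was narrow (6.84 against 6.85), and the wild-type difference had a 95% interval of -0.60 to 0.13. The difference of the responses was 0.78 on the log2 scale (limma adjusted p = 0.165), so it did not pass the correction. It was 0.52 to 0.90 over 21 alternatives, with limma adjusted p-values of 0.0680 to 0.329. Of all probe sets, 1.87% showed the same opposition.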

How the results depend on the processing

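The wild-type MMS call of Ung was made under all 23 alternatives run, with differences of 1.70 to 1.97, and the difference of responses gave 0 calls under all 22. The other counts of called glycosylase probe sets moved. For MMS in knock-out liver the count was 0, and 1 with array weights, with the filter on means above the median, and without both knock-out arrays numbered 3; leaving out 1 array gave 0 to 1. For knock-out against wild type after MMS it was 0, and 1 with array weights, the lower-quartile filter or trended robust variances, and 2 without both knock-out arrays numbered 3; leaving out 1 array gave 0 to 1. Without MMS it was 0, and 1 with array weights. For the mean MMS effect it was 1, and 2 with array weights. For the mean genotype effect it was 1, and 0 with the 5′ to 3′ signal as covariate (Mpg limma adjusted p = 0.0738), after quantile normalization (0.0895), without both knock-out arrays numbered 3, and with the median filter, which leaves that Mpg probe set untested; leaving out 1 array gave 0 to 1. Apart from the filter, the cause was not tested. With the animal number as a replicate block, the mean genotype count was 0 (Mpg limma adjusted p = 0.135), and the block changed no other count; the numbers were not shown to pair the animals.

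None of the 3 called differences changed sign under any alternative, and 22 of 53 uncalled ones did. Over all probe sets, calls ranged over 0 to 5790 for MMS in knock-out liver (341 as reported), 274 to 4873 in wild-type liver (1458), 3 to 1482 for knock-out against wild type after MMS (4), 3 to 182 without MMS (9), 0 to 2344 for the difference of responses (0), 1160 to 7459 for the mean MMS effect (2551) and 3 to 64 for the mean genotype effect (6). Centring each array on its median moved the median difference of all probe sets to 0.14 for MMS in wild-type liver, against -0.05 as deposited, and to -0.21 for the difference of responses, against 0.05. Of the 8 probe sets, 7 lay above the lower quartile of mean signal and 3 above the median.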
